A study of Oryctolagus cuniculus with 54 samples.

Results

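The step across the canalicular to saccular boundary of the rabbit lung was examined by setting 3 fetal lungs of gestational day 28 (F28) against 3 of day 27 (F27). The 6 libraries were chosen by their labels, which gave their day and sequencing run, and make up 6 of the 54 libraries and 3 + 3 of the 45 animals of the series. All were right lungs of New Zealand White fetuses, taken by C-section with their lungs removed at once and no treatment, and per the study's methods the lungs of a time point came from different dams. F27 animals 1, 7 and 11 and F28 animals 2, 7 and 9 were sequenced in run 1. The same run holds F25 (animals 3, 13 and 18) and F29 (animals 2, 7 and 11), and these 6 lungs served as independent neighbours on either side of the step. Levels of named genes are also given in F20 and F23 fetuses, whose whole lungs were used per the study's methods although the labels give right lung. They are given as well in pups born naturally on day 31 and kept with their mothers in room air (T31, T35, T37 and T42). Preterm pups (P0, P3 and P7) were delivered by C-section on day 28, kept in room air and, per the paper, fed milk formula. The T number is the day since conception, and P3 and P7 pups had reached days 31 and 35.

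The fetal lung becomes an organ of gas exchange late in gestation, when a capillary bed comes to lie against the future air spaces during the canalicular phase. Type II cells, which make and store surfactant, and the thin type I cells, across which gas diffuses, arise from a common progenitor around this time. The saccular phase that follows adds air space and surfactant, which lowers surface tension and keeps the air spaces open. A rabbit fetus delivered on day 28 can breathe on its own, and this is the age used for preterm rabbit models. The comparison asks how much of the lung's messenger RNA content differs between these adjacent days. RNA was measured in homogenized lung tissue of mixed cell types, so that more cells of a type and more RNA per cell cannot be told apart.

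Genes carry Ensembl identifiers in the count table, and 0 of them could be paired with a gene symbol here. The results are therefore given for identifiers and for groups of genes defined by their level or by their change in other animals. For the same reason the tissue label could not be checked against lung markers, and blood, muscle or immune markers could not be read. Each library was made with QuantSeq FWD, which reads a messenger RNA near its 3′ end, and levels are given as CPM, counts scaled to a common library size with TMM factors.

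The 6 libraries held 5862298 to 6610616 counts, and 15650 to 15958 genes had at least 1 count. The 10 most abundant genes of a library took 11.8% and 11.9% of the counts in F27 animals 1 and 7 but 8.15% in F27 animal 11. At F28 they took 9.996% and 9.48% in animals 2 and 7 and 12.1% in animal 9, so this share varied across both groups. No pair of the 6 libraries was identical, and the chi-square of the counts per degree of freedom was 6.09 or more in all 15 pairs, where sampling noise alone gives about 1. It was 9.81 to 14.2 among F27 animals 1 and 7 and F28 animal 9, and 6.09 to 12.1 among F27 animal 11 and F28 animals 2 and 7. Across these sets of 3 it was 20.0 to 26.1. Without the 10 most abundant genes the values were 10.6 to 16.3 and 6.66 to 12.8 within the sets and 13.5 to 20.6 across them, so the ranges overlapped. The sets cross the groups. With the share of the 10 most abundant genes as a covariate, added after seeing the data, 6 genes were called in place of 4.

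Few genes separated the adjacent days by the thresholds of the study. Of 14130 genes tested, 4 (0.0283%) were called at a fold change over 2 and an adjusted p up to 0.05, 3 higher (0.0212%) and 1 lower (0.00708%) at F28. The test was edgeR's quasi-likelihood test over the 12 fetal libraries of run 1, with p-values adjusted by Benjamini-Hochberg. By the adjusted p alone 5 genes (0.0354%) passed, the added one with a fold change of 1.85. At an unadjusted p under 0.05 there were 1674 genes (11.8%), 832 higher (5.89%) and 842 lower (5.96%) at F28. The CPM values of the groups did not overlap for 2288 genes (16.2%), of which 1186 were higher (8.39%) and 1102 lower (7.8%). If no gene differed, a share of about 0.05 would pass the unadjusted p. A share of about 0.1 would then not overlap, with 3 against 3 animals. The count of 4 was fragile. It was 0 without F27 animal 1, F27 animal 7 or F28 animal 7, 2 without F28 animal 2, 5 without F28 animal 9 and 77 without F27 animal 11. On the same 12 libraries limma-voom, the tool that the study used, called 0 genes (1683 at an unadjusted p under 0.05) and DESeq2 113.

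The size of the changes was small for most genes. The median absolute change was 0.22 on the log2 scale, and 11297 genes (79.95%) changed by less than 1.5-fold. Precision followed the level. Among 4825 genes under 5 CPM the median half-width of the 95% interval of a fold change was 1.37 on the log2 scale, a 2.58-fold range to either side, and none was called. For 5527 genes between 5 and 50 CPM the median half-width was 0.46, and 1 gene was called. For 3495 genes between 50 and 500 CPM it was 0.27, and 3 were called. For 283 genes over 500 CPM it was 0.24, with 0 calls by edgeR but 51 genes (18.02%) at an unadjusted p under 0.05. The share at an unadjusted p under 0.05 was 7.40% in the lowest of these classes, 13.4% in the next and 15.1% in the one above. Most of the 1224 genes whose fitted change exceeded 2-fold were scarce, with a median of 0.834 CPM against 14.6 CPM for all genes tested.

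**Figure D1:**
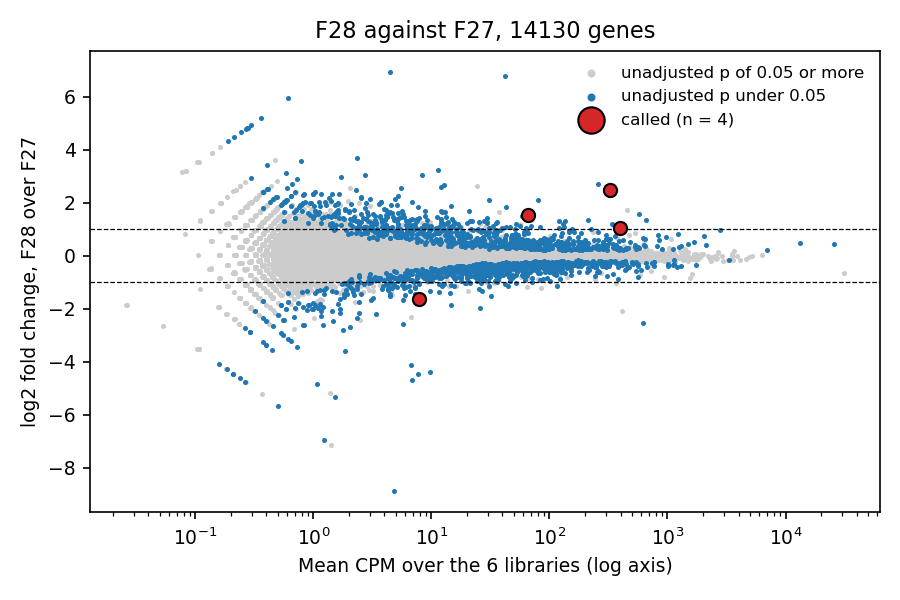
The log2 fold change of F28 over F27 is plotted for 14130 genes against the mean CPM of the 6 libraries on a log axis. Grey points have an unadjusted p of 0.05 or more, blue points a smaller one, and the 4 red points are the called genes. Dashed lines mark a 2-fold change. The spread narrows with level, and the called genes are not those with the largest folds.

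The largest rise among called genes was that of ENSOCUG00000005922. Its level was 106, 74.2 and 116 CPM in F27 animals 1, 7 and 11, and 854, 533 and 272 CPM in F28 animals 2, 7 and 9. The lowest F28 lung was thus above the highest F27 lung, while the F28 lungs were widely spread. It rose by 2.49 ± 0.35 (SE) on the log2 scale, a 5.61-fold change (95% interval 1.73 to 3.24 on the log2 scale, adjusted p = 0.0400, edgeR). The same gene was at 30.8, 40.7 and 38.5 CPM in the F25 lungs and at 941, 1007 and 547 CPM in the F29 lungs. From F28 to F29 its fitted change was 0.59 ± 0.33 (adjusted p = 0.825, edgeR).

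ENSOCUG00000013795 had the next largest rise. It was at 23.9, 39.6 and 37.6 CPM in F27 animals 1, 7 and 11 and at 95.4, 123 and 75.2 CPM in F28 animals 2, 7 and 9, without overlap. It rose by 1.53 ± 0.23 on the log2 scale, 2.90-fold (95% interval 1.04 to 2.03, adjusted p = 0.0416, edgeR). Its F25 lungs were at 29.0, 24.6 and 27.0 CPM and its F29 lungs at 71.9, 117 and 84.7 CPM, so both earlier days lay below both later days in every animal. The remaining called rise belonged to a gene with 242 to 273 CPM in the F27 lungs and 454 to 607 CPM in the F28 lungs. Its fold change was 2.04, the closest of the 4 to the threshold.

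The only called fall was that of ENSOCUG00000007315, a scarce transcript. Its counts were 76, 72 and 78 in F27 animals 1, 7 and 11 and 25, 29 and 17 in F28 animals 2, 7 and 9, or 11.9, 11.8 and 12.3 CPM against 4.14, 4.85 and 2.65 CPM. It fell by 1.63 on the log2 scale (SE 0.23, to 0.324 of the F27 level, 95% interval -2.13 to -1.13, adjusted p = 0.0400, edgeR). At F29 it was at 11.0, 13.2 and 11.6 CPM, near the F27 values, and at F25 at 12.5, 17.5 and 15.7 CPM. The low level was thus seen in the F28 lungs and in none of the other 9 fetal lungs of the run. No other gene passed both thresholds downward. The nearest among falls past 2-fold without overlap, ENSOCUG00000027535, was chosen after its values were seen. It was at 73.0, 67.5 and 67.7 CPM at F27 and at 34.6, 30.8 and 37.7 CPM at F28, a fitted change of -1.01 ± 0.17 (adjusted p = 0.0769, edgeR). At F25 it lay between 77.9 and 85.4 CPM and at F29 between 23.7 and 40.4 CPM.

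**Figure D2:**
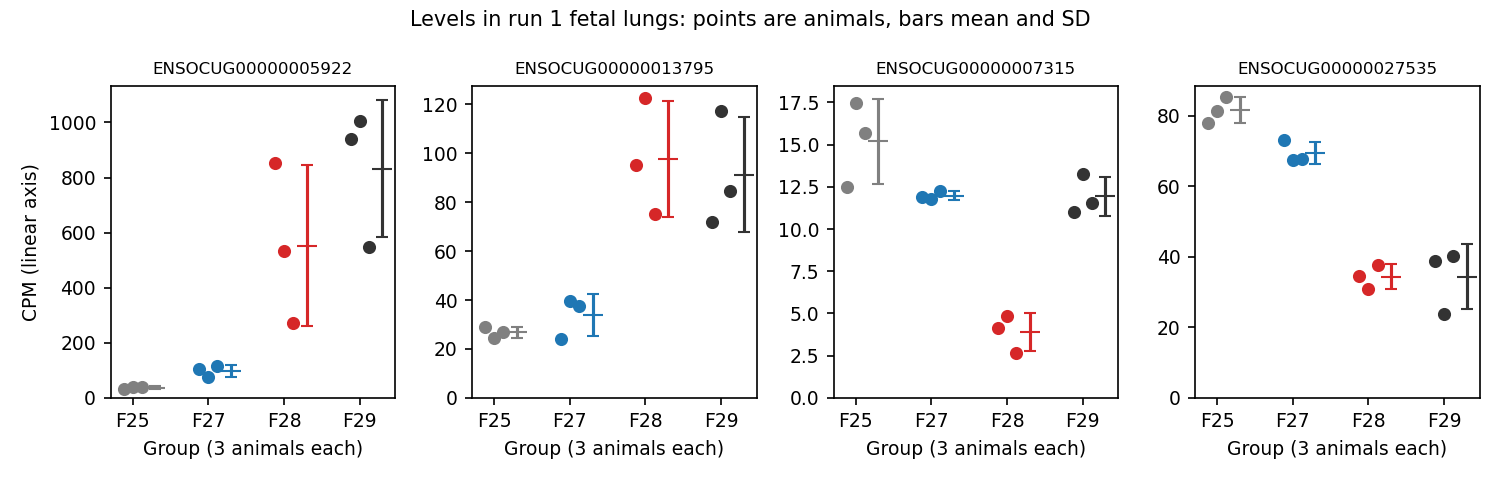
CPM on a linear axis is plotted for 4 identifiers in the 12 fetal libraries of run 1, with 1 point per animal and the mean and SD of 3 animals beside them. F28 and F27 do not overlap in any panel, which was a condition for choosing these genes. ENSOCUG00000007315 is low at F28 alone among the 4 days.

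The 3 F28 animals were sequenced again in run 2 or run 3, and the repeats show how well a level was measured. On CPM values scaled over all 54 libraries, ENSOCUG00000005922 was at 732, 758 and 485 CPM in runs 1, 2 and 3 for animal 2, at 460 and 329 CPM in runs 1 and 3 for animal 7, and at 240 and 225 CPM in runs 1 and 2 for animal 9. Animal 9 was the lowest in every run that held it. ENSOCUG00000013795 was at 81.8, 107 and 105 CPM in animal 2, 106 and 126 CPM in animal 7 and 66.5 and 95.3 CPM in animal 9, in the same order of runs. ENSOCUG00000007315 was less repeatable, with 3.55, 4.68 and 4.07 CPM in animal 2, 4.19 and 8.44 CPM in animal 7 and 2.34 and 4.85 CPM in animal 9. ENSOCUG00000027535 depended on the run, since animal 2 was at 29.7 CPM in run 1 but at 82.8 and 73.3 CPM in runs 2 and 3. Its levels can be compared within a run only, and F27 was sequenced in run 1 alone.

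Over the rest of the series, on the same scale, ENSOCUG00000005922 was low in the early fetal lungs and higher in the term and preterm pups. It ranged from 26.9 to 38.5 CPM at F20 (n = 4) and from 39.3 to 53.2 CPM at F23 (n = 4), both in run 3. In run 1 the means were 32.3 ± 5.06 CPM at F25, 86.2 ± 19.2 at F27, 477 ± 246 at F28, 721 ± 211 at F29, 677 ± 222 at T31 and 1304 ± 170 at T35 (SD, n = 3 each). The ranges of F28, F29 and T31 overlapped. Run 3 gave 883 to 1607 CPM in 3 T31 lungs, 983 and 1363 CPM in repeats of 2 T35 lungs, 2317 ± 753 CPM at T37 (SD, n = 4) and 2220 ± 630 CPM at T42 (SD, n = 3). Within that run T31 overlapped with T35, and T37 (1336 to 2967 CPM) overlapped with T31, T35 and T42. Preterm pups 1 h after delivery on day 28 (P0, run 2) were at 325, 334 and 401 CPM, between both F28 libraries of that run, at 225 and 758 CPM. Later preterm pups were higher, at 1271 to 1947 CPM at P3 (run 2) and at 2144 and 2543 CPM (run 2) and 3363 CPM (run 3) at P7. The T35 repeats of run 2 were at 1264 and 2277 CPM and overlapped with P7 of that run.

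ENSOCUG00000013795 was higher at F28 than at T35 in run 1. There its means were 23.6 ± 1.63 CPM at F25, 29.4 ± 7.26 at F27, 84.7 ± 19.8 at F28, 79.3 ± 20.5 at F29, 69.5 ± 31.6 at T31 and 30.2 ± 10.5 at T35 (SD, n = 3 each). The T35 lungs (19.9 to 40.9 CPM) were below all F28 lungs (66.5 to 106 CPM) and overlapped with F27 (21.1 to 34.4 CPM). At T31 it varied widely, from 50.9 to 250 CPM over 6 animals. In run 2 it was at 95.3 and 107 CPM at F28, 55.3 to 75.9 CPM at P0, 50.9 to 59.7 CPM at P3, 57.3 and 67.3 CPM at P7, and 27.9 and 43.0 CPM at T35. The preterm pups thus lay between F28 and T35 in that run, also at P7. P7 has the age of T35 since conception but not its delivery, feeding or time since birth. ENSOCUG00000007315 was at 17.03 to 21.7 CPM at F20 (n = 4) and 11.9 to 14.3 CPM at F23 (n = 4) in run 3, and its run 1 means were 13.4 ± 2.41 CPM at F25, 10.5 ± 0.226 at F27, 3.36 ± 0.938 at F28, 10.4 ± 1.03 at F29, 6.80 ± 1.06 at T31 and 9.24 ± 1.45 at T35 (SD, n = 3 each). The F28 mean was the lowest of these. In run 2 the P0 pups of the same gestational day were at 7.80, 8.32 and 11.2 CPM, above both F28 libraries of that run (4.68 and 4.85 CPM). In run 3, however, F28 animal 7 itself was at 8.44 CPM. Levels as low as in the F28 libraries of run 2 also occurred after birth. The ranges were 4.72 to 7.12 CPM at P3 (run 2), and 4.64 to 8.66 CPM at T31 and 4.47 to 9.55 CPM at T37 (both run 3). P7 was at 6.31 and 8.62 CPM in run 2, and T42 at 5.26 to 9.77 CPM in run 3.

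Several larger folds were not called, and some of them rested on 1 animal. Among genes with a mean of at least 5 CPM, 20 had a fitted change above 2 on the log2 scale without being called, 12 higher and 8 lower at F28, and the groups overlapped in 12 of the 20. In 4 of the 20, 1 animal held over 80% of the CPM summed over the 6 lungs. Their lowest adjusted p was 0.0793 (edgeR). The largest rise was 6.77 ± 2.47 on the log2 scale, from a gene at 249 CPM in F28 animal 7 and at 0.467 to 1.33 CPM in the other 5 lungs. It was also at 265 CPM in F29 animal 7 and at 2.46 and 0.95 CPM in the other F29 lungs. The largest fall, -4.69 ± 1.42, came from a gene at 36.2 CPM in F27 animal 11, 3.13 CPM in F27 animal 1 and 1.33 CPM or less in the remaining 4 lungs. By contrast, a gene with a rise of 3.24 ± 0.60 was higher in all 3 F28 lungs (34.4, 7.70 and 20.1 CPM) than in all F27 lungs (0.626, 2.13 and 3.78 CPM), with an adjusted p of 0.0793 (edgeR). These 3 genes were chosen after their values were seen.

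Although few genes were called singly, the step had a common direction with the change seen in other animals. F29 was compared with F25, a contrast chosen after seeing the data, whose 6 animals have no library in the F27 to F28 step. It called 1170 of 14130 genes (8.28%), 716 higher (5.07%) and 454 lower (3.21%) at F29. Of the 716 genes, 639 (89.2%) were also higher at F28 than at F27, with a median change of 0.63 on the log2 scale and quartiles of 0.31 and 1.03. Of the 454 genes, 424 (93.4%) were lower at F28, with a median of -0.61 and quartiles of -0.82 and -0.37. Over all genes tested the share higher at F28 was 49.5% and the median change was -0.00388. Of these 1170 genes, 3 were called in the F27 to F28 step, all higher.

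The reverse view gave a like picture. Of the 832 genes higher at F28 at an unadjusted p under 0.05, 711 (85.5%) were higher at F29 than at F25, with a median of 0.76 on the log2 scale, and 303 (36.4%) were called higher there against 5.07% of all genes. Of the 842 genes lower at F28, 722 (85.7%) were lower at F29 than at F25, with a median of -0.53, and 226 (26.8%) were called lower there against 3.21%. The 113 genes that DESeq2 called in the step held all 4 edgeR calls. Of its 81 genes higher at F28 (0.573%), 80 were higher and 71 called higher at F29 than at F25 in the edgeR fit. Of its 32 lower genes (0.226%), all 32 were lower and 21 called lower. Both contrasts estimate each gene's spread from the same 12 libraries, so a gene with little spread passes more readily in both. Scarce genes also passed less often in the step. The shares called in F29 against F25 are thus not independent of how the genes were chosen. The direction of the change was measured in other animals.

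The change across the step grew with the change from F25 to F29. Genes whose F29 over F25 change exceeded 2 on the log2 scale (505 genes) had a median step of 0.90. Those between 1 and 2 (877 genes) had a median step of 0.41, and those between 0.5 and 1 (1322 genes) one of 0.18. On the falling side the medians were -0.17 for changes of -1 to -0.5 (1487 genes), -0.36 for -2 to -1 (789 genes) and -0.64 for -2 or less (296 genes). The 8854 genes that changed by less than 0.5 had a median step of -0.02.

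**Figure D3:**
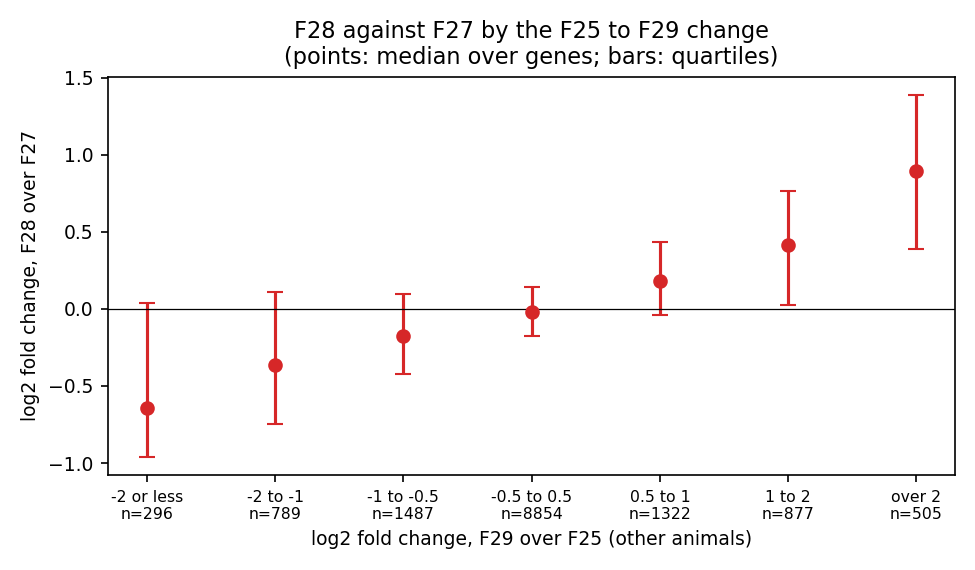
The log2 fold change of F28 over F27 is plotted for 7 classes of genes formed by their log2 fold change of F29 over F25, which was measured in other animals. Points are medians over the genes of a class and bars their quartiles. The medians run from -0.64 in the most strongly falling class to 0.90 in the most strongly rising one.

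Each library was then placed on a line from the mean F25 lung (position 0) to the mean F29 lung (position 1), using the log2 CPM of all 14130 genes and weighting each gene by its F29 minus F25 difference. F27 and F28 animals played no part in drawing this line. F27 animals 1, 7 and 11 were at 0.340, 0.427 and 0.569, and F28 animals 2, 7 and 9 at 0.742, 0.721 and 0.716. The F28 lungs lay close together and above every F27 lung, while the F27 lungs were spread along the line with animal 11 nearest to F28. The means were 0.445 ± 0.116 at F27 and 0.726 ± 0.0137 at F28 (SD, n = 3 each), a difference of 0.281. At an even pace 1 of the 4 days between F25 and F29 would be 0.25. Chance variation in the F25 and F29 means enters the line and draws other libraries towards its middle, which shrinks such a difference. Over the 1170 genes called in F29 against F25 the difference was 0.339, and over all genes it was 0.228 to 0.343 without single animals. How far it was shrunk was not estimated, and whether the pace was even was not tested. For the difference of 0.281 an exact permutation test (two-sided, all 20 ways to divide the 6 animals) gave p = 0.1, which is the smallest that 3 against 3 allows. F27 animal 11 was also the lung that changed the count of calls most. Without it, 39 genes (0.278%) were called higher and 38 (0.271%) lower at F28. In F29 against F25, 36 of these 39 were higher and all 38 were lower, where 49.5% of all genes tested were higher and 50.5% lower. Animal 11 was singled out after the results were seen. Leaving out the F27 lung nearest to F28 on this line favours genes that follow the line, so these counts are not separate evidence of a common direction.

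**Figure D4:**
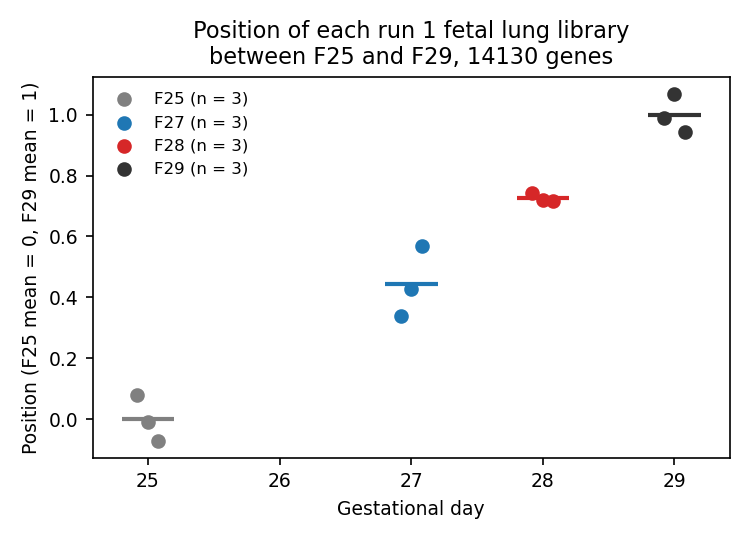
The position of each run 1 fetal lung between the F25 mean (0) and the F29 mean (1) is plotted against gestational day, with 1 point per animal and a bar at the mean of each group of 3. F27 lies at 0.340 to 0.569 and F28 at 0.716 to 0.742. F25 and F29 are at 0 and 1 on average by construction.

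Over all genes together the animals of a group were nearly as far from each other as from the adjacent day. The root mean square difference between libraries was 0.687 log2 units per gene within F27 (0.667 to 0.708, 3 pairs), 0.669 within F28 (0.636 to 0.698, 3 pairs) and 0.720 between the groups (0.654 to 0.782, 9 pairs). The difference between and within groups was 0.0424 (the same exact permutation test, p = 0.1, again the smallest possible). F27 animal 11 and F28 animal 2 were at 0.654, closer than any pair of F27 animals.

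The neighbouring steps of the same fit also gave few calls by edgeR. From F25 to F27, a span of 2 days, edgeR called 1 gene and DESeq2 124. From F28 to F29 edgeR called 0 genes (897 at an unadjusted p under 0.05), limma-voom 0 (933) and DESeq2 18. These steps share their F27 and F28 animals with the comparison of F28 with F27, so their counts are not independent. Whether the step into F28 differed from the step out of it was tested for each gene. This difference passed an adjusted p of 0.05 for 1 gene (0.00708%), ENSOCUG00000007315, which was lower at F28 than on either neighbouring day (difference of the steps -3.25 ± 0.42 on the log2 scale, adjusted p = 0.0441, edgeR). Its step from F28 to F29 alone was 1.62 ± 0.23 and was not called (adjusted p = 0.0862, edgeR). At an unadjusted p under 0.05 there were 850 genes. With limma-voom the count was 0 (908 at an unadjusted p under 0.05), and it was 0 without any single animal of the 9 other than F28 animal 9, without which it was 2.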

How the data were processed

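Lung RNA was sequenced with QuantSeq FWD on an Illumina NextSeq500, per the labels. The labels give right lung for all libraries, while the study's methods give whole lungs at F20 and F23. The authors trimmed adapters with BBduk, aligned to OryCun2.0 with STAR and counted with HTSeq-count on the Ensembl annotation. A custom script was used for unannotated 3′ UTRs, and whether its reads are in the table, like the tool versions, is not given in the sources used here. The deposited values are raw counts of 29587 genes in 54 libraries, with 0 unmapped columns. Run 1 alone holds F27, so the 12 fetal libraries of run 1 were fitted together (8 residual degrees of freedom). Genes with at least 0.5 CPM in 3 or more libraries (14130) were tested with edgeR 4.0.16 in R 4.3.3 after TMM scaling. The SE is the absolute log2 fold change divided by the square root of F. limma 3.58.1 and DESeq2 1.42.0 gave alternatives, and positions used log2 CPM with a prior count of 2. The procedures were checked on simulated counts.

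The groups and gene lists were chosen with earlier results of these data known. Identifiers named are the 2 largest rises and the 2 largest falls among called genes without overlap, of which there was only 1 fall. The 20 gene lists planned by symbol could not be applied, since 0 identifiers matched a symbol. Figures were drawn with matplotlib 3.10.9.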

Additional observations from a re-analysis of the deposited data

Results flagged for a closer look

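ENSOCUG00000013795 was far higher in 1 of the 6 T31 lungs (250 CPM) than in the others (50.9 to 106 CPM), with a gap to the nearest of 0.723 of the whole range. Dixon's 95% critical value is 0.625 for 6 samples and 0.829 for 4. Of 16 groups of values examined, this alone passed its critical value, where chance passes about 1 in 20. Larger gaps of 0.740 to 0.784 in groups of 4 did not pass. The T31 lungs came from runs 1 and 3. ENSOCUG00000007315 changed differently into and out of day 28, with a difference of the steps of -3.25 on the log2 scale. Both steps share the F28 lungs, which held only 17 to 29 counts of this gene in run 1.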

How the results depend on the processing

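The number of genes called between F28 and F27 was 4. It was 4 with DESeq2 size factors and with at least 10 counts in each F27 and F28 library, 5 by the adjusted p alone and 6 with the covariate added after seeing the data. It was 113 with DESeq2, 50 without a filter on low counts, 24 with limma-voom on all 54 libraries, 2 with the 6 libraries alone, 2 with the 18 libraries of run 1, 0 with limma-voom (1683 genes at an unadjusted p under 0.05) and 0 with glmTreat at a fold of 1.5 (432). Leaving out single animals gave 0 to 77 calls (0 with 1501, 1525 and 1314 genes at an unadjusted p under 0.05 without F27 animal 1, F27 animal 7 and F28 animal 7). The cause of these differences was not tested. Over the 17 alternatives the log2 change was 2.03 to 2.81 for ENSOCUG00000005922 (adjusted p 2.44e-06 to 0.297), 1.34 to 1.69 for ENSOCUG00000013795 (2.06e-07 to 0.572) and -1.82 to -1.34 for ENSOCUG00000007315 (1.54e-05 to 0.493), so each kept its direction in all of them and lost its call in 7, 8 and 8. The count for the difference of the steps was 1, 0 with limma-voom, 2 without a filter and 0 to 2 without single animals. The difference in position of 0.281 was 0.339 over the genes called in F29 against F25 and 0.228 to 0.343 without single animals. It was 0.236 on a line from F25 to T31 and 0.18 on one from F25 to T35. Those lines span more days, so their units differ and the lower values do not by themselves mean a smaller step. No paired analysis was possible because F27 and F28 share only 1 animal number, and these numbers are animal codes.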
